A study of Mus musculus with 2 samples.

Results

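The 55 genes described here encode the G protein subunits and RGS proteins of the mouse, and their RNA was measured in the left cerebral cortex. They were chosen by symbol: G alpha subunits other than Gnas, G beta and G gamma subunits, and RGS genes that are named by number, together with Rgs7bp and Rgs9bp, the anchors of R7 RGS proteins. Of 55536 annotated genes, 60 have a symbol of this form. Left out of these were 4 processed pseudogenes, which were listed at 0 in both libraries, and Gnb1l, which is named after the G beta family but is no subunit (3.21 and 2.48 TPM). The 55 members comprise 15 G alpha, 5 G beta and 12 G gamma genes, 21 RGS genes and 2 anchors.

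Both libraries come from male mice of the hybrid strain B6CASTF1/J, a cross of C57BL/6 with CAST, that were 14 days old, and each was made from 300 ng of total RNA with ERCC spike-ins. They are replicates 1 and 2 of 1 group, so the data hold no comparison between conditions and no p-value is given. The labels list a biosample for each library but 1 donor entry, mention 3 males and do not state whether their tissue was combined. Nothing says that the libraries came from separate animals, so the spread between them may be technical.

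A heterotrimeric G protein carries a signal from a receptor in the cell membrane to enzymes and channels inside the cell. An active receptor loads the alpha subunit with GTP, alpha separates from the beta-gamma pair, and both parts act on effectors such as adenylyl cyclase, phospholipase C beta and potassium channels. RGS proteins speed up the hydrolysis of GTP by alpha and so end the signal. In the cerebral cortex these proteins stand behind the receptors for dopamine, acetylcholine, serotonin, noradrenaline and many peptides.

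The libraries held 28263266 and 30862848 expected counts over annotated genes in replicates 1 and 2, so the limit that a gene listed at 0 allows, 3 counts, equals 0.106 and 0.0972 CPM, which is counts scaled to library size. Such floors cover counting error only. All 6 markers of cortical excitatory neurons reached 1 TPM (transcript abundance scaled to a fixed total per library, a level per length) in both libraries, led by Slc17a7 with 684 and 741 TPM. The libraries also stand apart in markers of other tissue: the summed level of 12 markers of striatal projection neurons was 666 TPM in replicate 1 and 213 TPM in replicate 2, and all 12 were lower in replicate 2. All 6 oligodendrocyte markers were lower in replicate 2 as well, with sums of 1070.4 and 701 TPM. The 6 markers of cortical excitatory neurons (867 and 1003 TPM) were all higher in replicate 2. The sum of 10 immediate early genes was also higher there (180 and 301 TPM), although Npas4 was nearly level at 4.93 and 4.85 TPM. In bulk tissue, fewer cells of a type and less RNA per cell cannot be told apart.

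The ends of the coding sequences were compared within the G alpha and within the G gamma members. Those of RGS genes and anchors were not compared, and G beta members have no cysteine codon at the place described here. In the inhibitory alpha subunits, the cysteine at position 4 counted back from the carboxyl end is the site that pertussis toxin modifies, which cuts the subunit off from its receptor. The last 24 bases of the coding sequence, stop codon included, are shown for 6 subunits of the i/o/z, q/11 and 12/13 branches, because they show where this codon is kept and where it is not. They were read from the GENCODE M21 transcripts (mm10), the letters are of the coding strand, each run lies in 1 exon, and the capitals mark codon 4 when the last sense codon is counted as codon 1.
Gnao1: ctccggggcTGCggcttgtactga
Gnai1: ctaaaagacTGTggtctcttctaa
Gnai2: ctgaaggacTGTggcctcttctga
Gnaz: ctcaagtacATCggcctttgctga
Gnaq: ctgaaggagTACaatctggtctaa
Gna13: ctgaagcagCTCatgctgcagtga
These runs lie at chr8:93967032-93967055 (plus strand, Gnao1), chr5:18267019-18267042 (minus, Gnai1), chr9:107615635-107615658 (minus, Gnai2), chr10:75015189-75015212 (plus, Gnaz), chr19:16383371-16383394 (plus, Gnaq) and chr11:109396463-109396486 (plus, Gna13).
A cysteine codon (TGC or TGT) stands there in 4 of the 5 genes of the i/o/z branch, with Gnaz as the exception, and in all 3 of the transducin and gustducin genes. It stands there in 0 of the 7 other G alpha members.

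In G gamma, the cysteine at the same place carries the lipid that holds the beta-gamma pair at the membrane. The last residue of the protein is known to set which lipid is attached: subunits that end in leucine receive a geranylgeranyl group, and those of the transducin gamma kind, which end in serine, the shorter farnesyl group. The ends of 5 genes show both kinds, again with that codon in capitals.
Gng2: aagttcttcTGCgccatcctttaa
Gng3: aagttcttcTGTgcgctcctctga
Gng7: aaaaagcctTGCataattctctag
Gng11: aagggcagcTGTgtcatttcataa
Gngt2: aaaggcactTGTgtgctaagctga
They lie at chr14:19875807-19875830 (minus, Gng2), chr19:8838143-8838166 (minus, Gng3), chr10:80951621-80951644 (minus, Gng7), chr6:4008137-4008160 (plus, Gng11) and chr11:95845585-95845608 (plus, Gngt2).
All 12 G gamma members have the cysteine codon. A leucine codon is last in 9 of them and a serine codon in 3, which are Gng11, Gngt1 and Gngt2. The 3 that end in serine were among the lowest of their class: Gng11 was at 3.85 and 4.75 TPM in replicates 1 and 2, Gngt2 at 1.61 and 1.45 TPM, and Gngt1 was listed at 0 in both. Of the 9 that end in leucine, 8 were at 21.7 TPM or more in each library, and Gng8 was at 0.99 and 0.56 TPM.

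Of the 55 members, 42 (76.4%) reached 1 TPM in both libraries, against 58.7% of 22015 nuclear protein-coding genes. The second table, a separate quantification, put 45 at 1 TPM or more, with Gnat1 (1.34 and 1.17 TPM), Gng8 (2.04 and 1.13 TPM) and Rgs13 (1.12 and 1.33 TPM) added. Its TPM ran higher for most members, so 1 TPM is not the same level in both. Gnai1, at 86.3 and 90.3 TPM in the gene table, was at 119 and 124 TPM in the second. Together the members summed to 3237.4 and 3118.9 TPM, or 0.697% and 0.665% of the nuclear protein-coding TPM. A mean of 100 TPM or more was reached by 6 members, Gnb1, Gnao1, Gnb2, Rgs4, Gng2 and Gng3, and a further 32 lay from 10 to under 100 TPM. The 13 members not detected summed to 3.19 and 3.59 TPM. Of these, 3 were listed at 0 in both libraries of the gene table: Gnat3 (gustducin, of taste cells), Gngt1 (of rod photoreceptors) and Rgs21. In the second table Gnat3 was at 0 as well, but Gngt1 was at 0.458 and 0.300 TPM and Rgs21 at 0.020 and 0.036 TPM.

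**Figure D1:**
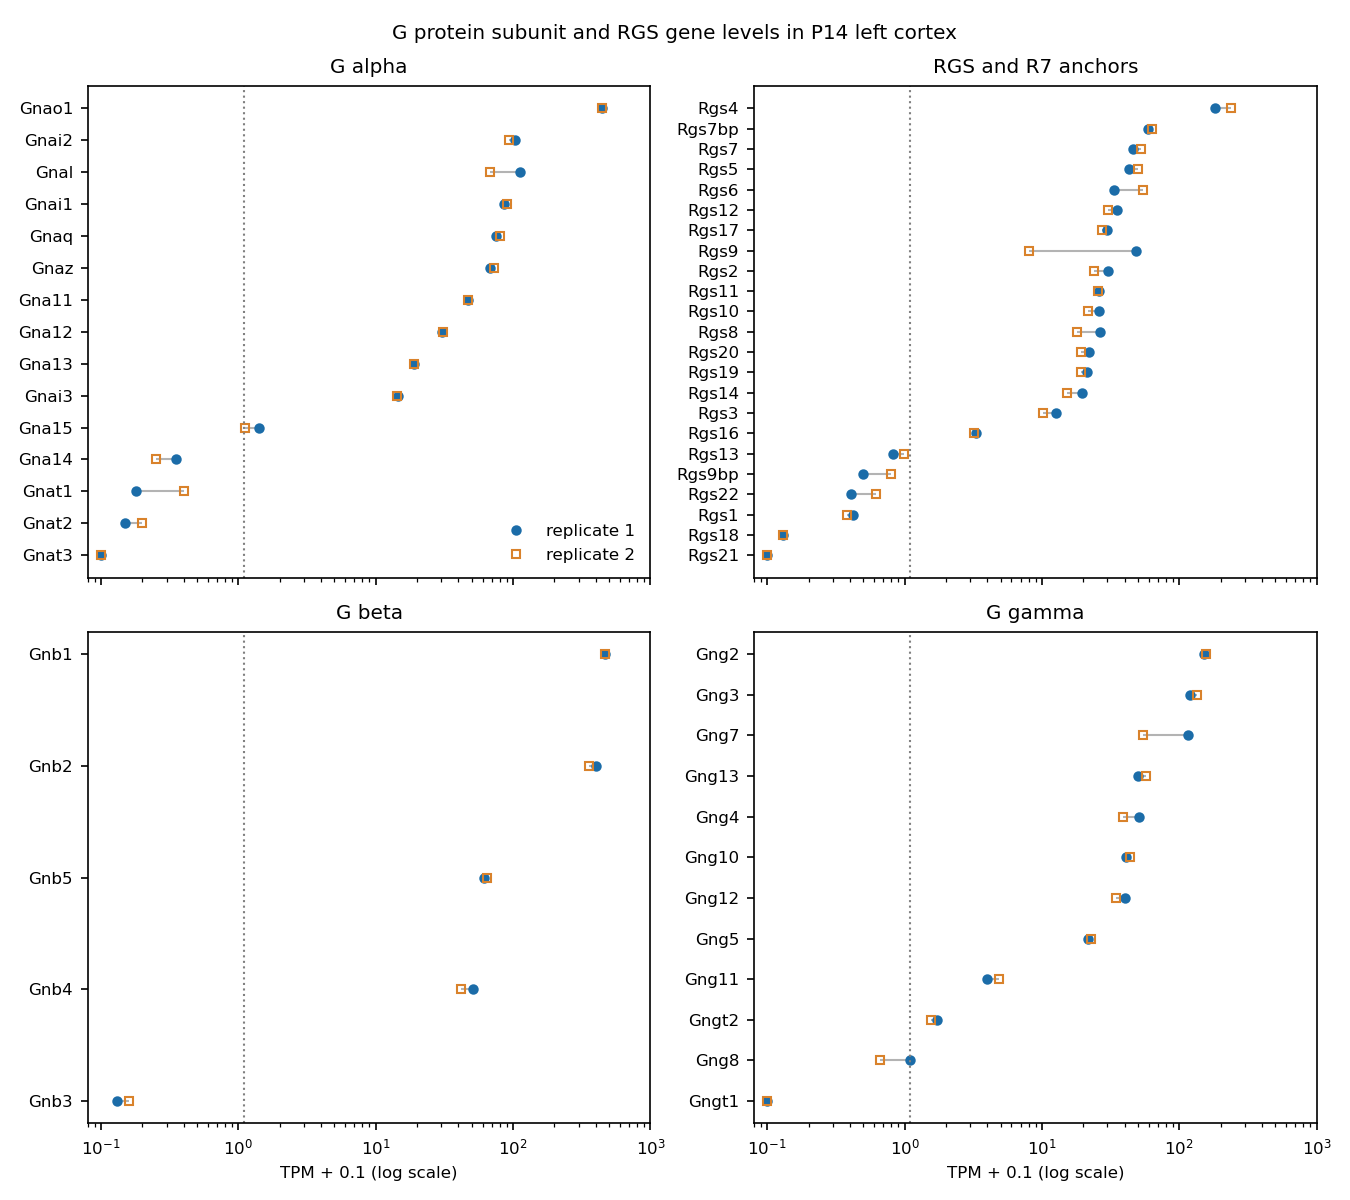
Level of each of the 55 members in both libraries, as TPM + 0.1 on a log scale, in 4 panels by class, each sorted by mean; circles are replicate 1, open squares replicate 2, and the dotted line is a TPM of 1. Most pairs of points nearly coincide, from Gnb1 at 466 and 467 TPM downwards, while Rgs9 (48.03 and 8.01 TPM) spans the widest gap among the detected members.

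Among the 15 G alpha members, which do not include Gnas, the i/o/z branch held 71.4 and 74.4% of the summed TPM in replicates 1 and 2; with Gnas added to the class it held 37.8 and 40.0%. Gnao1, which encodes the main G protein alpha subunit of neurons, was at 443 and 445 TPM in replicates 1 and 2, a level above that of 99.7% of nuclear protein-coding genes. It made up 45.3 ± 1.38% of the summed TPM of the 15 G alpha members (SD, n = 2), or 24.2% with Gnas added. Gnai2 followed at 102 and 93.5 TPM and Gnai1 at 86.3 and 90.3 TPM, both inhibitors of adenylyl cyclase. Within each library Gnao1 exceeded Gnai2 by a log2 ratio of 2.18 ± 0.10 (SD, n = 2; ratios are of TPM + 0.1), and the ratio of Gnai2 to Gnai1 was only 0.15 ± 0.14. Gnaz, the toxin-resistant member shown above with ATC in place of the cysteine codon, was at 68.0 and 72.5 TPM. Gnai3 was lowest of the branch at 14.4 and 14.2 TPM, below Gnai1 by a log2 ratio of 2.62 ± 0.06.

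The other branches were lower, with the olfactory subunit as the member that differed between libraries. Gnaq, which activates phospholipase C beta, was at 75.2 and 80.8 TPM and its close relative Gna11 at 46.5 and 46.6 TPM, so that Gnaq was ahead in both libraries (log2 ratio 0.74 ± 0.07). Their relatives Gna15 (1.32 and 1.01 TPM) and Gna14 (0.25 and 0.15 TPM) were near or below the detection level. Gna12, which acts on the cytoskeleton through guanine nucleotide exchange factors, was at 30.4 and 31.0 TPM, above its partner Gna13 at 19.0 and 19.0 TPM (log2 ratio of Gna13 to Gna12 -0.69 ± 0.02). Gnal encodes the olfactory alpha subunit, which stimulates adenylyl cyclase and in the striatum stands in for Gs alpha. It was at 113 TPM in replicate 1 and 67.7 TPM in replicate 2. Its log2 ratio to Gnas, the Gs alpha gene and no member, was -3.29 ± 0.45. The transducins Gnat1 (0.08 and 0.30 TPM) and Gnat2 (0.05 and 0.10 TPM), which serve rods and cones, held 2 and 7 and 1 and 1 expected counts.

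In the order of mean TPM, Gnao1 stood clear of all other G alpha members, and the ranges of Gnai2, Gnal and Gnai1 overlapped in turn. From Gnai1 down through Gnaq, Gnaz, Gna11, Gna12, Gna13, Gnai3, Gna15 and Gna14, each gene's range over the 2 libraries was separated from the next. The wide range of Gnal also took in those of Gnaq and Gnaz. Gnal had rank 2 of 15 in replicate 1 and rank 6 in replicate 2.

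Among the 5 G beta genes, Gnb1 and Gnb2 held nearly all of the RNA. Gnb1 was at 466 and 467 TPM and made up 49.04 ± 1.92% of the class (SD, n = 2). Gnb2 was at 399 and 354 TPM, or 39.5 ± 1.82%, so that Gnb1 was ahead by a log2 ratio of 0.31 ± 0.12. Gnb5, which pairs with R7 RGS proteins in place of a gamma subunit, was at 61.4 and 64.0 TPM. Gnb4 was at 51.3 and 41.4 TPM. Of its abundance, 41.12 and 41.05% was assigned to Gnb4-207 and 23.2 and 21.9% to Gnb4-204, both annotated as retained introns. The level of Gnb4 is therefore not one of coding RNA alone. Gnb3, the beta subunit of cones, was at 0.03 and 0.06 TPM with 1 and 2 counts. All neighbours in this order were separated.

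The RNA of G gamma was spread over more genes than that of G beta. Gng2 (152 and 158 TPM) and Gng3 (119 and 134 TPM), both abundant in brain, led with 27.02 ± 2.26% and 22.2 ± 3.09% of the class (SD, n = 2). Gng7, known as the gamma subunit that pairs with the olfactory alpha subunit in the striatum, had rank 3 of 12 in replicate 1 with 116 TPM and rank 4 in replicate 2 with 54.8 TPM. Gng13 was at 49.9 and 57.1 TPM, Gng4 at 50.6 and 39.0 TPM, and Gng10 at 41.1 and 43.7 TPM. The ranges of Gng7, Gng13, Gng4 and Gng10 overlapped in turn, so neighbours among these 4 have no set order. Gng12 (40.2 and 34.6 TPM) and Gng5 (21.7 and 22.8 TPM), which are expressed in many tissues, came next by mean. Both were separated from their direct neighbours in this order, but the range of Gng12 overlapped that of Gng4.

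Some of the gamma levels carry a limit from the annotation. Exons of Gng10 share 71.99% of their bases with Gm20503 on the same strand, a gene at 1.71 and 0.32 TPM. Exons of Gng13 lie opposite Chtf18 over 51.6% of their bases (0.61 and 0.87 TPM) and those of Gng3 opposite Bscl2 over 24.2% (52.7 and 50.5 TPM). Whether strand was used in counting is not given in the sources used here, so reads in these stretches may have been divided between genes. In the second transcript table Gng13 was at 16.1 and 49.4 TPM, below its values in the gene table in both libraries and by more in replicate 1. The TPM of the 2 tables is not on 1 scale. Gng4, for example, was at 73.2 and 56.8 TPM in the second, above its values in the gene table. The level of Gng13 rests on 241 and 294 expected counts, against 2850 and 2386 for Gng4. Of its abundance, 98.3 and 98.4% was assigned to Gng13-201, a transcript of 347 bases. The log2 ratio of Gng13 to Gng7, -0.58 in the gene table, was -2.22 in the second table and -4.04 by counts not divided by length.

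**Figure D2:**
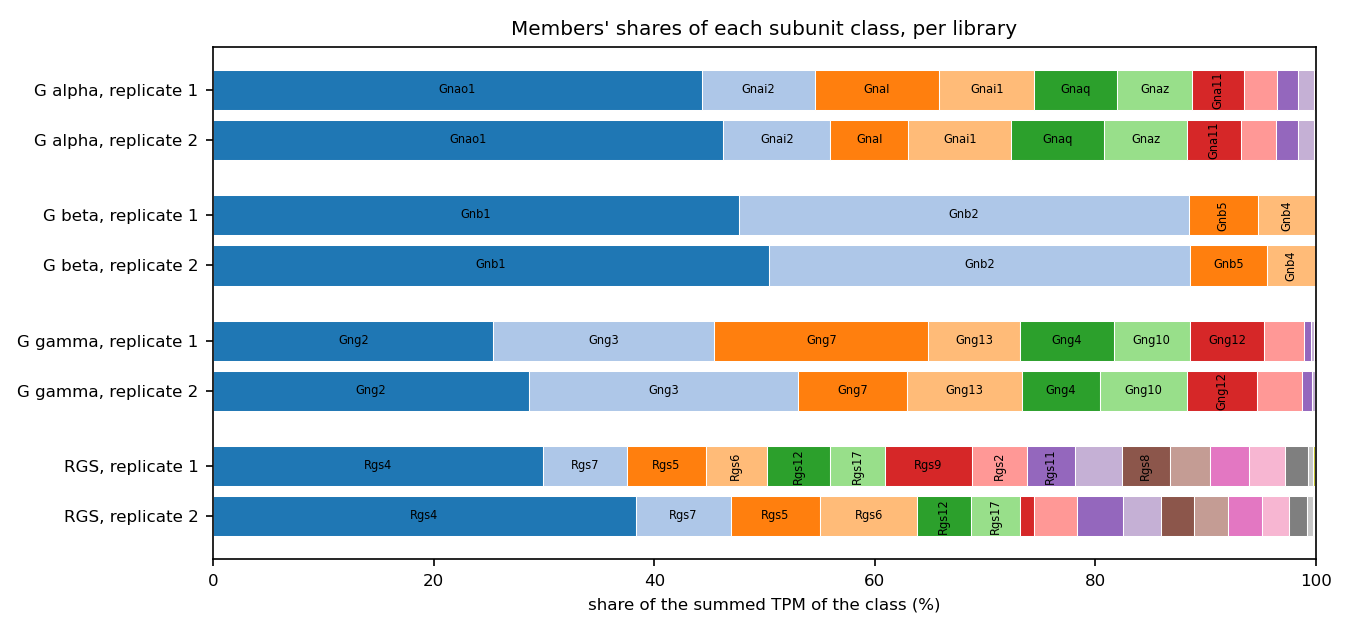
Share of each member in the summed TPM of its class (percent), with a bar for each library; segments follow the order of mean TPM and are named where wide enough. Gnao1, Gnb1 and Rgs4 lead their classes in both libraries, while the segments of Gnal, Gng7 and Rgs9 are narrower in replicate 2.

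A single gene led the RGS class. Rgs4, which acts on the i/o and q branches and is the RGS gene best known from cortical neurons, was at 181 and 236 TPM and made up 34.1 ± 5.93% of the RNA of the 21 RGS genes (SD, n = 2). It exceeded Rgs2 of the same R4 family by a log2 ratio of 2.94 ± 0.50. The other R4 genes were far lower. Rgs5, a marker of pericytes, was at 43.2 and 50.01 TPM, and the 8 mural cell markers summed to 83.5 and 89.2 TPM. Rgs2, which prefers the q branch and is induced by neuronal activity, was at 30.0 and 23.9 TPM. It was lower in replicate 2, while the sum of the 10 immediate early genes was higher there. Rgs8 was at 26.3 and 18.0 TPM, Rgs3 at 12.6 and 10.1 TPM and Rgs16 at 3.22 and 3.08 TPM. The highest transcript of Rgs3, Rgs3-207, is annotated as a retained intron. It held 28.2 and 31.1% of the gene's abundance, and 27.3 and 37.2% in the second table. Rgs13, Rgs1 and Rgs18, known from lymphocytes and platelets, stayed below 1 TPM in both libraries of the gene table, where 1 of 7 blood leukocyte markers was detected.

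The 4 R7 genes, whose proteins pair with the Gnb5 product and act on the i/o branch in neurons, were of like level in replicate 1 but not in replicate 2. Rgs7 was at 45.6 and 53.0 TPM, Rgs6 at 33.4 and 54.3 TPM, Rgs11 at 26.1 and 25.6 TPM and Rgs9 at 48.03 and 8.01 TPM. Most of the Rgs11 RNA was assigned to transcripts annotated as retained introns, so the level of Rgs11 is not one of coding RNA. Rgs9, the R7 gene of the striatum and of photoreceptors, had rank 2 of 21 RGS genes in replicate 1 and rank 15 in replicate 2. Rgs6 had rank 6 in replicate 1 and rank 2 in replicate 2. Of the membrane anchors, Rgs7bp was at 58.9 and 62.8 TPM and Rgs9bp, the anchor known from the retina, at 0.40 and 0.70 TPM, a log2 ratio of 6.59 ± 0.41.

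The R12 and RZ families had 3 genes each, all detected. In the R12 family, Rgs12 (34.9 and 30.0 TPM) and Rgs14 (19.6 and 15.2 TPM) encode large proteins with further binding domains, and Rgs12 was ahead by a log2 ratio of 0.91 ± 0.10. Rgs10, a short protein of the same family that is known from microglia and neurons, was at 25.9 and 21.5 TPM. In the RZ family, Rgs17 was at 29.7 and 27.4 TPM, Rgs20 at 21.9 and 19.1 TPM and Rgs19 at 21.04 and 19.3 TPM. These are known to act on Gnaz and the Gi subunits. All 3 R12 and all 3 RZ genes had lower values in replicate 2, by at most 0.36 on the log2 scale. Lower there as well were 12 of the 18 RGS genes tested, which include these, and 9498 of all 18965 genes tested. Rgs22, which belongs to none of these families, was at 0.31 and 0.52 TPM. Below Rgs4, the ranges of Rgs7, Rgs5, Rgs6 and Rgs12 overlapped in turn, and so did those of Rgs17, Rgs9, Rgs2, Rgs11, Rgs10, Rgs8, Rgs20, Rgs19 and Rgs14. These runs are not set apart from each other, since the range of Rgs9 (8.01 to 48.03 TPM) also overlapped those of Rgs7, Rgs5, Rgs6 and Rgs12.

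Of the 20 gene pairs set against each other within each library, 11 had the first-named gene higher in both libraries and 6 the other one, and 3 were not separated from equality by more than the spread (Gng13 and Gng7, Rgs7 and Rgs6, Rgs9 and Rgs7). These 3 each hold a gene that differed by more than 1.5-fold between the libraries.

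Differences between the libraries were taken as log2 CPM, replicate 2 minus replicate 1, for the 46 members with at least 10 expected counts in at least 1 library. The other 9 had fewer. More than 1.5-fold lower in replicate 2 were 3 of 46 (6.52%), against 6.61% of all 18965 genes tested, and more than 1.5-fold higher were 2 of 46 (4.35%), against 4.35%. These shares are near the background and are no result about the members as a set. The median difference was -0.03 over the members and 0.00 over all genes, and the median size of a difference was 0.16 and 0.14. The 6 members with a mean of 100 TPM or more differed by -0.14 to 0.39.

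**Figure D3:**
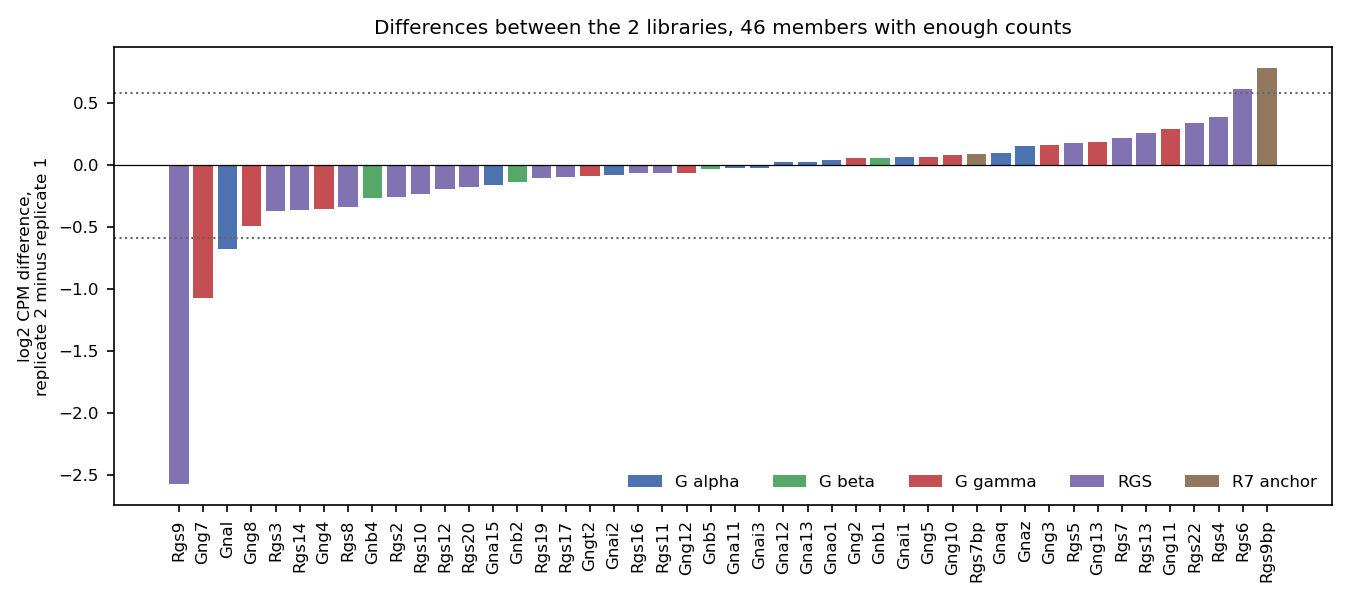
Log2 CPM difference, replicate 2 minus replicate 1, of the 46 members tested, coloured by class; the dotted lines mark 1.5-fold. Rgs9 (-2.58), Gng7 (-1.08) and Gnal (-0.68) lie below the lower line, and Rgs6 (0.61) and Rgs9bp (0.79) above the upper one.

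As background, the products of Gnal and Gng7 link dopamine and adenosine receptors to adenylyl cyclase 5 in striatal projection neurons, where Rgs9 limits signals of the inhibitory branch. These 3 genes were the members more than 1.5-fold lower in replicate 2. Rgs9 held 2095 and 374 expected counts in replicates 1 and 2 and was 5.97-fold lower in replicate 2, a log2 difference of -2.58. Among the 12624 genes that averaged 100 counts or more, 9 were lower by more. Gng7, with 6160 and 3128 counts, differed by -1.08 on the log2 scale, or 2.11-fold, and 73 genes were lower by more. Gnal, with 8429 and 5639 counts, differed by -0.68, and 192 genes were lower by more.

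Markers of striatal projection neurons moved with these genes. All 12 were lower in replicate 2, 11 of them by more than 1.5-fold, with a median of -1.88 and a range of -3.58 to -0.58. Their summed TPM was 666 in replicate 1 and 213 in replicate 2. Ppp1r1b, which encodes an inhibitor of protein phosphatase in these neurons, was at 186 and 46.03 TPM, and the dopamine receptor gene Drd2 at 13.6 and 1.87 TPM. The 6 oligodendrocyte markers were all lower, with a median of -0.61. The 6 thalamus markers were mixed, with a median of -0.51: 5 were lower and 1, Ramp3, was higher by 0.61. The largest fall among them, Gbx2 at -3.13, rests on 15 and 0 counts. The part of such tissue in the values of Rgs9, Gng7 and Gnal was not tested. Without Gnal the G alpha class summed to 887 and 895 TPM, without Gng7 the G gamma class to 481 and 496 TPM, and without Rgs9 the RGS class to 556 and 608 TPM.

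More than 1.5-fold higher in replicate 2 were Rgs6, an R7 gene, and Rgs9bp, an R7 anchor. Rgs6 held 1908 and 3129 counts and differed by 0.61, and 104 of the 12624 genes were higher by more. On this log2 CPM scale the 6 cortical excitatory markers were all higher in replicate 2 as well, with a median of 0.51. So were the 10 immediate early genes with a median of 0.75, although Npas4 was higher by only 0.07. The part of these 2 lists in the value of Rgs6 was not tested. Rgs9bp differed by 0.79 with 49 and 92 counts, at a level below 1 TPM in both libraries. The sum of 7 markers of choroid plexus and ependyma was 34.5 TPM in replicate 1 and 125 TPM in replicate 2, most of it Ttr.

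The genes around the members in the pathway were followed in a list of 48. Of these, 44 (91.7%) were detected, against 58.7% of nuclear protein-coding genes. The highest were Gnas (890 and 828 TPM), Kalrn (186 and 225 TPM), Adcy1 (119 and 154 TPM) and Rap1gap (149 and 122 TPM). Then came Trio (90.6 and 88.7 TPM), Plcb1 (76.1 and 86.6 TPM), Arrb1 (80.0 and 72.9 TPM) and Grk2 (74.5 and 75.3 TPM). Kalrn and Trio encode guanine nucleotide exchange factors, Rap1gap an activator of Rap1 GTP hydrolysis, Adcy1 a calcium-stimulated adenylyl cyclase, Plcb1 an effector of Gnaq, and Arrb1 and Grk2 proteins that switch receptors off.

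Between libraries, 4 of the 46 genes of this list with enough counts (8.7%) were more than 1.5-fold lower in replicate 2, against 6.61% of all genes. More than 1.5-fold higher were 0, against 4.35%. The share of lower genes is near the background and is no result about the list as a set. Adcy5, the adenylyl cyclase that Gnal and Gng7 serve in the striatum, was at 81.9 and 39.8 TPM, a difference of -1.03. Rasd2, a small GTPase abundant in striatum, was at 45.2 and 26.3 TPM, a difference of -0.80. Rasd1, its relative that is induced by dexamethasone, was at 4.70 and 2.97 TPM (-0.66). Gpr179, an anchor of R7 proteins in the retina, was at 0.21 and 0.08 TPM (-0.91), with only 28 and 15 counts. In sign alone, 31 of the 46 (67.4%) were higher in replicate 2, among them 23 of the 28 effectors (82.1%), against 49.9% of all genes tested.

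**Figure D4:**
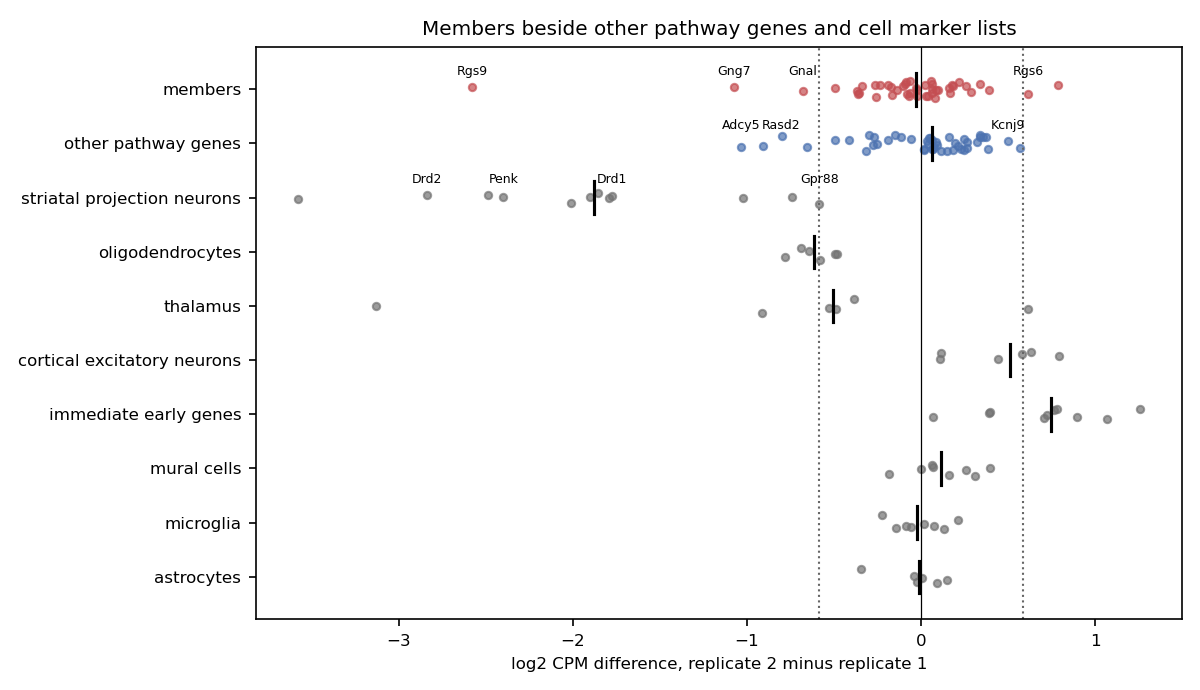
Log2 CPM difference, replicate 2 minus replicate 1, of each tested gene in the members, the other pathway genes and 8 marker lists; vertical bars are list medians and dotted lines mark 1.5-fold. Rgs9, Gng7, Gnal, Adcy5 and Rasd2 lie below 0, while the members as a whole centre on -0.03. The medians of the striatal (-1.88), oligodendrocyte (-0.61) and thalamus (-0.51) markers lie below 0 too.

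The members lie partly in tandem on the genome, and neighbours often differed widely in level. Within 500 kb of the next member lay 15 neighbouring pairs, 12 of them with no protein-coding gene between. On chromosome 1 lie 11 of the 55 members, among them 9 of the 10 R4 genes. There Rgs2 (143999338 to 144004161 on mm10) is followed by Rgs13, Rgs1, Rgs21 and Rgs18 (to 144775435), all on the minus strand; Rgs2 was at 30.0 and 23.9 TPM, while the other 4 stayed below 1 TPM in the gene table. Rgs5 and Rgs4 lie 45663 bases apart on opposite strands, and Rgs8 and Rgs16 lie 40025 bases apart.

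The inhibitory and sensory alpha genes form 3 such pairs. Gnai2 and Gnat1 on chromosome 9 lie 39106 bases apart, Gnat2 and Gnai3 on chromosome 3 5847 bases apart, and Gnat3 and Gnai1 on chromosome 5 245300 bases apart. In each pair the inhibitory gene was detected (at least 14.2 TPM in each library) and the sensory gene stayed at or below 0.30 TPM in the gene table. In the second table Gnat1 was higher, at 1.34 and 1.17 TPM. Gnaq (75.2 and 80.8 TPM) and Gna14 (0.25 and 0.15 TPM) on chromosome 19, and Gna11 (46.5 and 46.6 TPM) and Gna15 (1.32 and 1.01 TPM) on chromosome 10, are neighbours of unequal level in the q branch, although Gna15 was detected. Rgs9 (chromosome 11, 109225355 to 109298129, minus strand) lies 64701 bases from Gna13, which differed by 0.03 between the libraries where Rgs9 differed by -2.58.

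Transcript shares were read for the 37 members with at least 10 TPM in both libraries, from 2 tables made in different ways on the same annotation. A single transcript held more than 50% of the gene's abundance in both libraries in 25 of 37 members by the first table and 23 by the second. Among the 37 are 4 genes with 1 annotated transcript, Gnai1, Gnai3, Gng3 and Rgs7bp. They count here, and among the members on which the tables concur, by construction. By the mean of the 2 libraries, 27 members had 1 highest transcript in common between the tables and 10 did not. For 25 of these 27 it was the same in each library of each table as well. The exceptions were Gng7, whose highest transcript was Gng7-201 in replicate 1 of the first table and Gng7-202 in replicate 2 of the second, and Rgs19, which had Rgs19-211 highest in replicate 2 of the second. Among the 12 highest members, Rgs4-201 held 98.4 and 99.3% of Rgs4, and Gnaq-201 held 96.4 and 96.3% of Gnaq. Gnai1 and Gng3 have a single annotated transcript each. Gnai2-201 held 68.6 and 70.5%, Gnaz-201 63.7 and 67.8%, Gnal-201 56.8 and 62.2%, and Gng2-204 55.1% in both libraries. For these genes both tables named the same highest transcript.

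The G beta genes were the least settled. Gnb1-201 held 45.4 and 49.2% of Gnb1 in the first table, but the second put Gnb1-206, a retained-intron transcript, highest at 27.2 and 25.1%. For Gnb2 the first table put the retained-intron transcript Gnb2-213 highest (29.7 and 27.8%), to which the second assigned none, and the second put Gnb2-201 highest (42.4 and 39.7%). The retained-intron transcript Gnb4-207 (41.1 and 41.1%) was highest in the first table and the protein-coding Gnb4-201 (42.8 and 41.8%) in the second. There Gnb4-207 held 19.1 and 17.8%. Gnb5-206, with 353 codons, held 86.8 and 77.5% in the first table, while the second put Gnb5-202, with 395 codons, highest at 40.1 and 41.6%. The tables therefore do not settle which form of these 4 genes was most abundant.

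The other members with different highest transcripts were Gnao1, Gng13, Gng5, Rgs11, Rgs17 and Rgs2. The first table put Gng13-201 highest (98.3 and 98.4%) and the second Gng13-202 (100 and 37.6%), and for Gng5 they put Gng5-201 (97.3 and 98.6%) and Gng5-203 (99.0 and 79.1%). For Rgs17 they put Rgs17-204 (67.2 and 68.9%) and Rgs17-202 (63.0 and 56.2%), for Rgs2 Rgs2-202 (44.7 and 47.9%) and Rgs2-201 (45.4 and 44.8%), and for Rgs11 Rgs11-211 (27.01 and 23.9%) and Rgs11-208 (31.6 and 33.3%). Both Rgs11 transcripts are annotated as retained introns. The protein-coding transcripts of this gene held little. In the first table Rgs11-201 held 0 and 1.01% and Rgs11-202 2.83 and 0%. In the second table Rgs11-201 held 5.54 and 0.83% and Rgs11-202 0 and 1.65%.

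**Figure D5:**
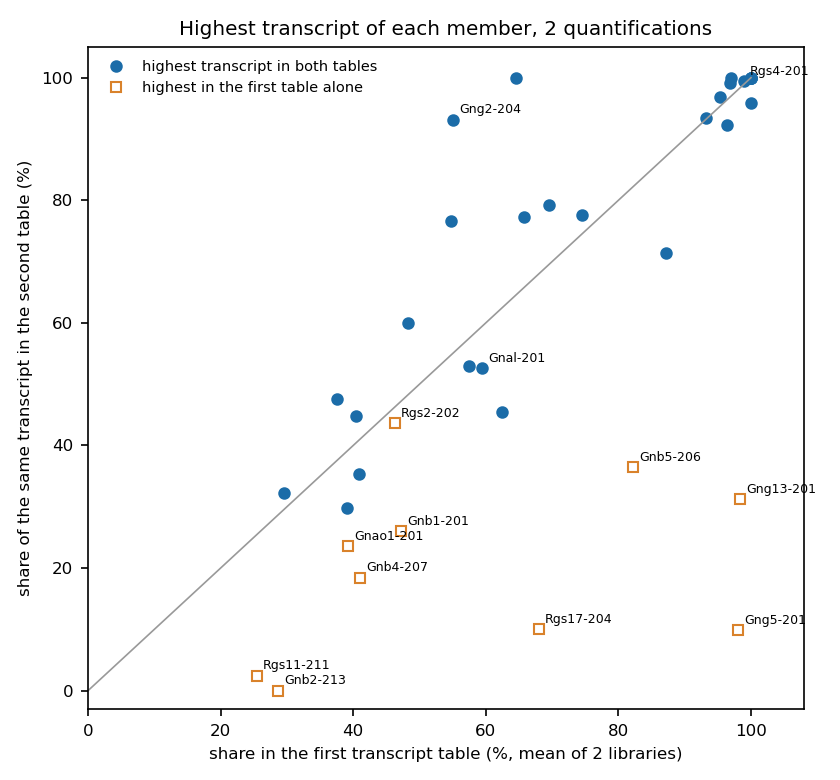
Share of the highest transcript of each of the 37 members in the first table (percent, mean of 2 libraries) against the share of the same transcript in the second table; open squares are the 10 members whose highest transcript differed between the tables, and the line marks equality. Rgs4-201 lies near 99% in both, whereas Gng5-201 and Gnb5-206 lie far below the line.

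Gnao1 is known to give splice forms with different carboxyl ends, which arise from alternative last coding exons. Transcripts Gnao1-201 and Gnao1-203 share 1 coding sequence of 1065 bases, and Gnao1-207 has a coding sequence of equal length that matches it over the first 737 bases. The end of each is shown because both keep the cysteine codon, in different spelling.
Gnao1-201: ctccggggcTGCggcttgtactga
Gnao1-207: ctacggggcTGTggactctactga
The second run lies upstream of the first, at chr8:93956229-93956252 on the plus strand. The coding sequence of Gnao1-201 and Gnao1-203 took 67.8 and 69.8% of the gene's abundance in replicates 1 and 2 of the first table, and Gnao1-207 took 6.83 and 7.31%. In the second table the values were 42.8 and 44.9% for the first form and 4.58 and 4.91% for Gnao1-207, and Gnao1-206 was highest with 28.6 and 27.6%. The first form was ahead of Gnao1-207 in both tables and both libraries.

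Rgs9 is known for a long form of the striatum and a short form of the retina. Rgs9-201, with 675 codons, held 54.1 and 40.8% of the gene's abundance in the first table, and Rgs9-204, with 484 codons, held 15.8 and 24.4%. In the second table these were 66.2 and 39.2% for the long transcript and 16.5 and 24.2% for the shorter one. In both tables the share of the 675-codon transcript was lower in replicate 2, in which the gene itself was at 8.01 TPM with 374 counts, and no error of a share within 1 library was available.

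Gng7 has more than 1 start, and the first table placed its reads at different starts in the 2 libraries. RefSeq (GRCm38.p6) gives 2 promoters, each shown as 250 bases before and 50 bases after the start, on the minus strand of chromosome 10. The upstream one is chr10:81014876-81015175 and the downstream one chr10:81001316-81001615. Capitals mark the GC box (GGGCGG or CCGCCC) and the CCAAT box (CCAAT or ATTGG), searched on both strands.
Gng7 upstream: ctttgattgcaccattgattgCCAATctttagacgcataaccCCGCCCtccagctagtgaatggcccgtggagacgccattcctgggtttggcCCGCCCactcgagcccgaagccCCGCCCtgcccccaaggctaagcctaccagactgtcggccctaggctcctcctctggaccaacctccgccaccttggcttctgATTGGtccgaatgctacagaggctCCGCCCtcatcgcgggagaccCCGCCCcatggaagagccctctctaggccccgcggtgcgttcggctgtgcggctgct
Gng7 downstream: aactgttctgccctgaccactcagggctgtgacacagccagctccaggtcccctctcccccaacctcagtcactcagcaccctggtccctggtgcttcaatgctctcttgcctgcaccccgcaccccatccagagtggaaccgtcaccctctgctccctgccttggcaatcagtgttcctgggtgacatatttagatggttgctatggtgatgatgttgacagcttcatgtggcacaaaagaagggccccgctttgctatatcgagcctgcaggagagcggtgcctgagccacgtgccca
The upstream window holds 5 GC boxes and 2 CCAAT boxes, none overlapping, and the downstream window holds 0 of each. Neither holds a TATA box (TATAAA or TTTATA). Of 32851 promoters of this length, 35.7% hold a GC box, 37.4% a CCAAT box and 13.6% a TATA box. A match of letters is a description and not a site.

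Transcripts that start within 500 bases of the upstream promoter's start (Gng7-201, Gng7-203 and Gng7-206) took 53.0% of Gng7 in replicate 1 and 28.8% in replicate 2 by the first table. Those of the downstream start (Gng7-202 and Gng7-204) took 27.9 and 52.9%, and Gng7-205, which starts at neither, took 19.1 and 18.3%. The second table gave the opposite direction, with 19.3 and 33.2% for the upstream start and 79.4 and 65.4% for the downstream one. The share of each start in the lower level of Gng7 in replicate 2 is therefore not settled by these tables, although both gave Gng7 as a whole a lower count in replicate 2 (-1.08 by the gene table and -1.09 by the second table).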

How the data were processed

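Total RNA-seq was available for 2 libraries, replicates 1 and 2 of 1 group. For each library the authors deposited a gene table, a transcript table made with it and another transcript table, all on GENCODE M21 and mm10, per the file headers and description files. The first 2 rest on alignments to the transcriptome, the last on the reads themselves. The deposited expected counts are estimates of reads per gene or transcript and carry no normalization. The deposited TPM values count spike-ins and every other entry in their total. The deposited percent is the part of a gene's abundance in each transcript. For the other transcript table, called the second table, the deposited estimated counts and TPM were added up per gene here. Aligner, quantifiers and use of strand: not given in the sources used here.

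The 96 spike-in entries, 26248 entries named only by a number (1 and 6 counts in replicates 1 and 2) and 1 other entry stayed out of totals and tests. Symbols and coordinates came from GENCODE M21, matched for all 55536 genes; the second table had no entry for 86. Depth was 28263266 and 30862848 expected counts. Expected counts were rounded. Log2 CPM differences used edgeR 4.0.16 (R 4.3.3) with TMM factors and prior count 2 on the 18965 genes that held 10 counts or more in either library. The common biological coefficient of variation, fitted with an intercept only, was 0.114. DESeq2 1.42.0 supplied other size factors. Other steps used Python 3.11.15, numpy 2.4.6, pandas 2.3.3 and matplotlib 3.10.9. The steps were tested on simulated counts.

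Pair ratios are log2 ratios of TPM + 0.1 in each library; a pair has a direction where its sign was the same in each library and its mean larger than its SD. Detection means a TPM of at least 1 in both libraries. Neighbours in an order are separated where their ranges over the libraries do not overlap. Members with a mean TPM of at least 10, those past 1.5-fold and those listed at 0 in both libraries were named by rule, as were the 8 highest pathway genes, those past 1.5-fold and the transcripts of the 12 highest members. The members and lists were chosen with earlier results of these data known. Gene positions, starts and neighbours were described after their values were seen. Marker lists other than those printed showed the following: endothelium had a median of 0.14, mural cells 0.12, microglia -0.02, astrocytes -0.01 and oligodendrocyte precursors -0.22, the 1 blood leukocyte marker tested was at -0.79, and of 6 cerebellar markers 0 were detected, while the 4 with enough counts were all more than 1.5-fold higher in replicate 2 (median 1.39).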

Additional observations from a re-analysis of the deposited data

How the results depend on the processing

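No paired analysis was possible because both libraries belong to 1 group. Of 76 values that alternatives gave for the main results, 62 stayed within 1.5 times the reported count or within 1 SD of the reported share, 33 of them equal to it, and 14 moved further. The class shares with 1 library left out are among the 62, and by arithmetic they could not leave 1 SD. Under the other alternatives the shares of Gnao1, Gnb1 and Gng2 all moved. Only the share of Rgs4 stayed, at 31.4% in the second table and 35.5% by counts. The 3 members lower in replicate 2 remained 3 under all scalings, filters and prior counts and in the second table; they were 2 at 2-fold and 4 by the ratio of TPM + 0.1, an alternative chosen after seeing the data. The 2 members higher in replicate 2 became 1 among genes averaging 100 counts or more, 3 with no filter on low counts, 3 by the ratio of TPM + 0.1, 4 in the second table and 0 at 2-fold. Detected members ranged from 38 to 45 and detected pathway genes from 35 to 44 over the alternatives. Of the other pathway genes, the 4 lower became 1 at 2-fold, and the 0 higher became 1 with spike-in factors, 1 in the second table and 1 by the ratio of TPM + 0.1. The share of Gnao1 in G alpha, 45.3%, was 55.4% in the second table, 40.2% by counts and 24.2% with Gnas added; that of Gnb1 in G beta, 49.04%, was 60.9% in the second table and 66.6% by counts; that of Gng2 in G gamma, 27.02%, was 22.0% in the second table and 31.8% by counts. These counts are not divided by length. Of 100 pair ratios, 67 stayed within 1 SD, but these include all ratios with 1 library left out, which could not leave it. A value from 1 library always lies within 1 SD of the mean of 2. The 28 ratios that moved further and the 5 counted as reversed all came from the other alternatives. In sign, 10 changed: 5 in the 17 pairs with a direction, and 5 in the 3 pairs not separated. By counts, Gnai2 over Gnai1 was -0.67 and Gnb5 over Gnb4 -0.0059; in the second table, Gng3 over Gng2 was 0.0027, Gng5 over Gng12 0.039 and Rgs17 over Rgs20 -0.043. The cause was not tested. All 70 values for the 9 single-gene differences past 1.5-fold kept their direction and side of the threshold. With 1 library left out, detected members stayed at 42, detected pathway genes at 44, and transcripts over 50% were 25 to 26. No scaling moved the median of all genes by more than 0.032 on the log2 scale. With 2 libraries of 1 group, no spread within a condition could be set against another, and members below about 0.1 CPM cannot be told from 0.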
